A study of Homo sapiens with 9 samples.

Results

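The hypoxia response and glycolysis genes were 41 genes of the cell's answer to low oxygen and of the breakdown of glucose. They were followed in U87 cells, a human glioma line, after transfection of the A or the G form of miR-376a*, or of a control. A gene was taken from the probe sets to which the platform annotation gives exactly 1 symbol, and it was read from the probe set with the highest mean over all 9 arrays. This gave 39 of the 41 genes, out of 19775 single-symbol genes on the array. CA9 and SLC16A3 had no probe set under a single symbol of that name in the annotation used here, and no value is given for them. All 39 were above the limit for low signals, a mean corresponding to a signal of 11.3, and EGLN3 was nearest to it.

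The groups were cells given miR-376a*A, cells given miR-376a*G and cells given a control miRNA. Each was made of 3 biological replicates of 100000 cells, with a duplex dose of 50 nM and RNA taken after 24 h. Duplex and lipid reagent were common to all 3 groups, so the controls were transfected cells and not untouched ones. In the published literature on this miRNA, miR-376a*A is its unedited form and miR-376a*G its A-to-I edited form, in which inosine pairs like G.

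Hypoxia-inducible factors (HIFs) are pairs of an alpha and a beta subunit. With oxygen present, prolyl hydroxylases mark the alpha subunit for destruction, and when oxygen falls the pair binds short DNA elements with the core letters ACGTG or GCGTG. Its targets raise glucose uptake and glycolysis, turn pyruvate away from the mitochondria and release factors that draw in blood vessels, a program well known in glioma. In RNA of whole cultures, fewer cells with a transcript and less of it per cell cannot be told apart.

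The transfected miRNA is shown because its 2 forms define the groups. RefSeq gives the mature strand on GRCh38.p14 at chr14:101040788-101040809 on the plus strand, from the gene MIR376A1. Capitals mark the seed, bases 2 to 8 from the 5′ end. No source used here gives the sequences of the transfected duplexes.
hsa-miR-376a-5p: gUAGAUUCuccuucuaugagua

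With miR-376a*G most of the genes that moved were lower, whereas with miR-376a*A few moved and they went both ways. Signals were compared as log2(signal + 16), and a gene passed at an adjusted p under 0.05 in a limma fit over all 20068 features tested. Fold values refer to that scale, on which the change of a dim gene is understated. With miR-376a*G, 20 of 39 genes fell (51.3%), against 13.1% of all features, and 2 rose (5.13%), against 11.8% of all features. Their median difference from control was -0.21, while that of all features was -0.0038. With miR-376a*A, 6 of 39 fell (15.4%), against 10.0% of all features, and 5 rose (12.8%), against 10.8%. These shares lay near those of all features, and the median, 0.067 against 0.041 for all features, was -0.014 under quantile normalization. Both comparisons use the same 3 control arrays.

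The direct comparison of the forms does not use the control arrays in its difference. Of 39 genes, 21 were higher with miR-376a*A than with miR-376a*G (53.8%), against 10.4% of all features, and 1 was lower (2.56%), against 7.90%. The median difference was 0.25, while that of all features was 0.034. The 3 arrays of each form did not overlap for 26 of 39 genes (66.7%), against 42.2% of features. For miR-376a*G against control the figure was again 26 genes, against 38.3% of features, and for miR-376a*A it was 15 genes (38.5%), against 36.7%. The miR-376a*G mean was the lowest of the 3 group means for 32 genes and the highest for 1. This order was not counted over all features, so no background share stands beside it.

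The trimmed mean signals of all 9 arrays lay between 100.009 and 100.011, a shared scale, and arrays of a group correlated at 0.9865 to 0.9952. The number of arrays limits the precision, and the median SE of a log2 difference was 0.101 over all features. Of 10 marker genes of glioma lines 8 were above the limit for low signals, while GFAP and S100B were below it, so these markers of astrocytes were near background in cells labelled glioma. The ratio of the 3′ to the 5′ GAPDH control probe sets, a sign of RNA quality, was 0.890 to 0.896 with miR-376a*A, 0.866 to 0.882 with miR-376a*G and 0.886 to 0.907 with control miRNA. All 3 miR-376a*G values lay below those of the other groups. The same ratio for ACTB overlapped between the groups, at 0.868 to 0.906, 0.899 to 0.908 and 0.882 to 0.903 in the same order. Both neuronal markers, SYT1 and RBFOX3, were above the limit, and their summed signal was 128 to 152 with miR-376a*A, 60.2 to 79.7 with miR-376a*G and 114 to 149 with control miRNA. Of 3 endothelial markers, PECAM1 alone was above it, and the sum was 90.0 to 97.0, 50.7 to 53.3 and 45.9 to 54.4 in the same order of groups. The sums for blood (2 of 3 above the limit) and epithelium (1 of 3) overlapped between miR-376a*A and control miRNA, at 64.3 to 71.5, 47.8 to 63.7 and 60.3 to 79.7 for blood and 26.3 to 34.7, 20.3 to 27.7 and 28.2 to 40.4 for epithelium. The part of these signals in the results was not tested.

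**Figure D1:**
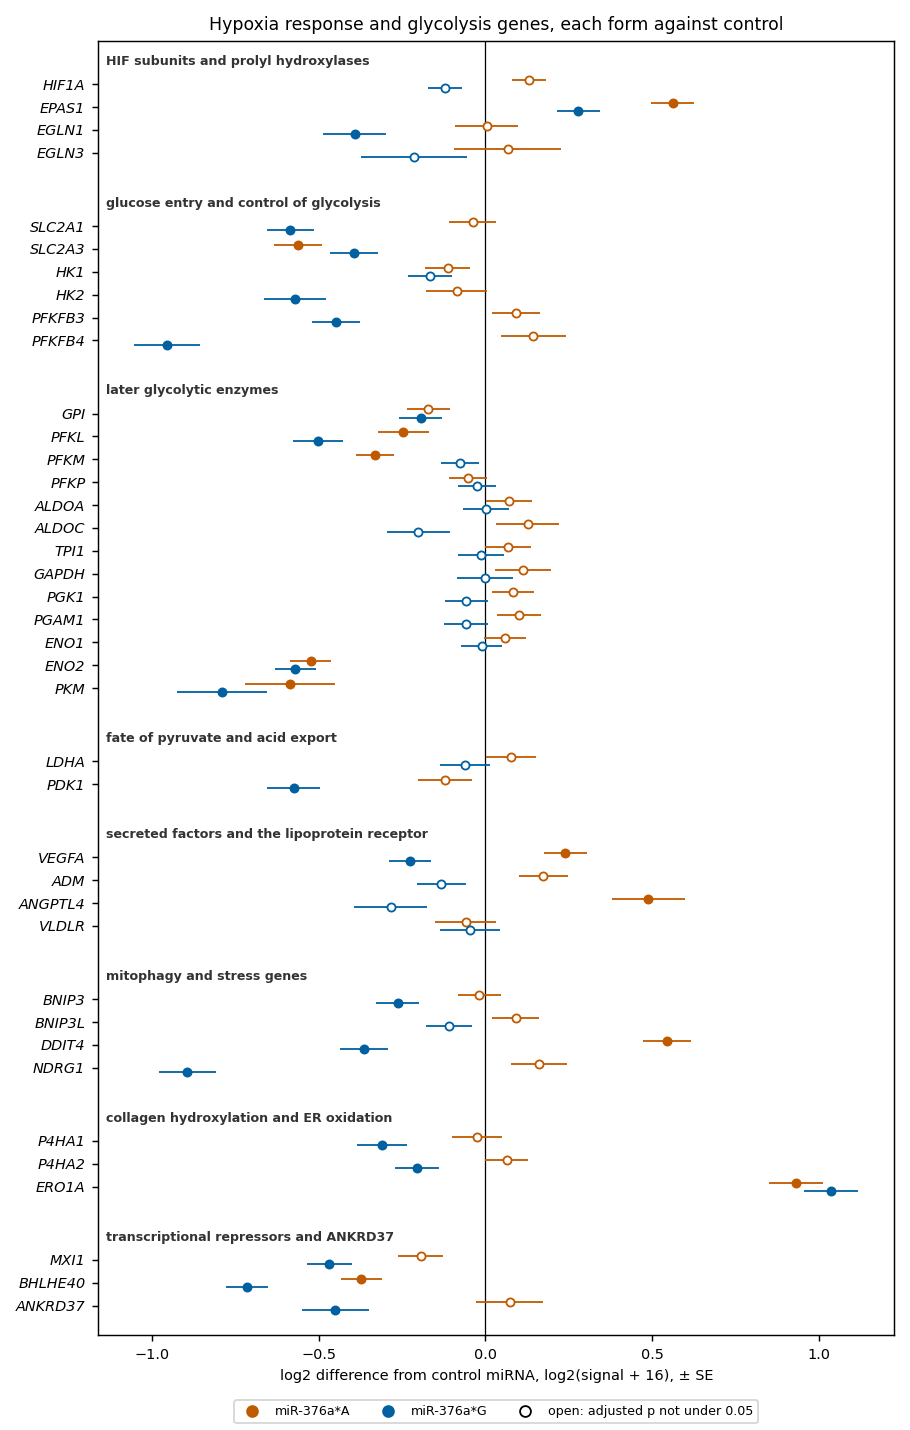
Log2 difference from control miRNA (horizontal axis, ± SE, n = 3 arrays a group) of the 39 genes by role, miR-376a*A in orange above miR-376a*G in blue. Filled points have an adjusted p under 0.05, and 20 of the blue filled points lie left of 0.

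Among the oxygen sensors and HIF alpha subunits, EPAS1 rose with both forms and EGLN1 fell with miR-376a*G. HIF1A encodes the alpha subunit that is best known for switching on glycolysis. Its signal was 2225, 2185 and 2094 in miR-376a*A cells, 1788, 1809 and 1854 in miR-376a*G cells and 2009, 1997 and 1926 in control cells. All miR-376a*A arrays were above all controls and all miR-376a*G arrays were below them. Neither form differed from control past the threshold, with 0.13 ± 0.052 (SE; adjusted p = 0.0924) with the A form and -0.12 ± 0.052 (adjusted p = 0.111) with the G form. The forms themselves differed by 0.25 ± 0.052 (adjusted p = 0.00439), with the A form higher. Without control replicate 1, HIF1A passed as higher with miR-376a*A (0.14, adjusted p = 0.0408).

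EPAS1 encodes another HIF alpha subunit. It gave 1705, 1642 and 1553 in miR-376a*A cells, 1387, 1321 and 1309 in miR-376a*G cells and 1019.5, 1134 and 1153 in control cells. The 3 groups did not overlap, and both forms were above control. EPAS1 rose 1.48-fold with miR-376a*A (log2 0.56 ± 0.064, adjusted p = 5.78e-05) and 1.21-fold with miR-376a*G (0.28 ± 0.064, adjusted p = 0.00699). It was the only one of the 39 genes that rose with both forms and also differed between them (0.28 ± 0.064, adjusted p = 0.00847). Its dimmer probe set rose with miR-376a*A (0.38, adjusted p = 0.0418) and did not pass with miR-376a*G (0.13, adjusted p = 0.473).

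The prolyl hydroxylase genes EGLN1 and EGLN3 encode the oxygen sensors that mark HIF alpha subunits. EGLN1 averaged 305 ± 17.9 in miR-376a*A cells, 228 ± 14.9 in miR-376a*G cells and 306 ± 43.2 in control cells (SD, n = 3 each). It fell by 0.39 ± 0.094 with miR-376a*G (adjusted p = 0.00887) and differed between the forms by 0.40 ± 0.094 (adjusted p = 0.0113). Without miR-376a*A replicate 2 the difference between the forms did not pass (0.37, adjusted p = 0.0502). Another EGLN1 probe set, with means of 323 in miR-376a*A cells, 201 in miR-376a*G cells and 234 in control cells, rose with miR-376a*A (0.43, adjusted p = 0.00207). Neither other probe set passed with miR-376a*G (-0.21 and -0.30, adjusted p = 0.0779 and 0.0644), while both were higher with miR-376a*A than with miR-376a*G (0.64 and 0.40, adjusted p = 0.000112 and 0.0216). EGLN3 was dim, between 6.64 and 23.2 on every array, and passed in no comparison.

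Of 6 genes of glucose entry and its first control steps, 5 fell with miR-376a*G (83.3%), against 13.1% of all features, with a median of -0.51. With miR-376a*A, 1 of these 6 fell (16.7%), against 10.0%, with a median of -0.062. SLC2A1 encodes the glucose transporter of most cell lines. It gave 277, 308 and 299 in miR-376a*A cells, 208, 194 and 188 in miR-376a*G cells and 301, 316 and 292 in control cells. The miR-376a*G arrays lay below all others, and the other groups overlapped. SLC2A1 was 1.5-fold lower with miR-376a*G than with control (-0.58 ± 0.072, adjusted p = 7.86e-05) and 1.46-fold higher with miR-376a*A than with miR-376a*G (adjusted p = 0.000166). With miR-376a*A its difference from control was -0.038 ± 0.072, with a 95% interval of -0.19 to 0.12. A dimmer SLC2A1 probe set also fell with miR-376a*G (-0.64, adjusted p = 0.00497). On it the difference from control was -0.41 with miR-376a*A (adjusted p = 0.055), and the forms differed by 0.23 (adjusted p = 0.296).

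SLC2A3, a transporter gene with high affinity for glucose, fell with both forms. It gave 404, 407 and 410.2 in miR-376a*A cells, 454, 482 and 442 in miR-376a*G cells and 667, 557 and 607 in control cells. All control arrays were above both forms, and the miR-376a*A arrays were the lowest. The falls were 0.56 ± 0.073 with miR-376a*A (adjusted p = 0.000156) and 0.39 ± 0.073 with miR-376a*G (adjusted p = 0.00169). On this probe set, whose type can pick up near copies such as SLC2A14, the forms did not differ past the threshold (-0.17 ± 0.073, adjusted p = 0.136). On its other tested probe sets SLC2A3 fell further with miR-376a*A, by 1.25 and 1.47, and by 0.59 and 0.40 with miR-376a*G. There the forms differed by -0.65 (adjusted p = 0.00138) and -1.08 (adjusted p = 1.85e-06), lower with miR-376a*A.

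Hexokinases trap glucose in the cell as glucose phosphate. HK2, the inducible hexokinase gene, gave 564, 516 and 517 in miR-376a*A cells, 371, 365 and 392 in miR-376a*G cells and 648, 485 and 576 in control cells. The miR-376a*G arrays were below all others, while the other groups overlapped. HK2 fell 1.49-fold with miR-376a*G (-0.57 ± 0.092, adjusted p = 0.000677) and was 1.4-fold higher with miR-376a*A than with miR-376a*G (adjusted p = 0.00274). This held for its brightest probe set only. The dimmer ones, with group means of 30.9 to 75.0, were higher with miR-376a*G by 0.88 and 0.96 and with miR-376a*A by 0.87 and 0.51, all past the threshold, so the direction for HK2 depends on the probe set. HK1, the hexokinase gene active in most tissues, averaged 1274 ± 54.8 in miR-376a*A cells, 1227 ± 37.1 in miR-376a*G cells and 1381 ± 112 in control cells. It passed in no comparison over all arrays, and was lower with miR-376a*G when control replicate 3 was left out (-0.22, adjusted p = 0.0497).

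PFKFB3 and PFKFB4 encode enzymes that make and break the sugar phosphate that activates phosphofructokinase. PFKFB4 showed the largest fall of the 39 genes with miR-376a*G. It gave 439, 449 and 489.8 in miR-376a*A cells, 224, 195 and 199 in miR-376a*G cells and 468, 431 and 350.9 in control cells. Every miR-376a*G array was below every other array, and the miR-376a*A arrays overlapped the controls. PFKFB4 fell by 0.95 ± 0.099 with miR-376a*G (adjusted p = 1.91e-05) and was 2.14-fold higher with miR-376a*A than with miR-376a*G (1.10 ± 0.099, adjusted p = 6.45e-06). Its dimmer probe set also fell with miR-376a*G (-0.56, adjusted p = 0.0331) but did not pass between the forms (0.46, adjusted p = 0.088).

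PFKFB3 gave 595, 554 and 544 in miR-376a*A cells, 381, 377 and 392 in miR-376a*G cells and 489, 577 and 524 in control cells. It had the same order as PFKFB4, with miR-376a*G lowest and the other groups overlapping. Its fall with miR-376a*G was 0.45 ± 0.072 (adjusted p = 0.000658), and the forms differed by 0.54 ± 0.072 (adjusted p = 0.000197).

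Of 13 later glycolytic enzymes tested, 4 fell (30.8%) and 0 rose with each form, with medians of 0.059 with the A form and -0.059 with the G form. Of all features, 10.0% fell with miR-376a*A and 13.1% with miR-376a*G. PFKL, ENO2 and PKM fell with both forms, PFKM with miR-376a*A and GPI with miR-376a*G. At an unadjusted p under 0.05 the limma fit also gave 0 rises among them in both comparisons. The aldolase gene ALDOA, the triose phosphate isomerase gene TPI1, GAPDH, PGK1, PGAM1, ENO1 and the platelet phosphofructokinase gene PFKP passed in no comparison on their brightest probe sets. Their differences lay between -0.059 and 0.11 against control and between -0.029 and 0.16 between the forms. For GAPDH, which oxidises glyceraldehyde phosphate, the signal was 2833, 2553 and 2355 in miR-376a*A cells, 2538, 2263 and 2339 in miR-376a*G cells and 2311, 2663 and 2183 in control cells. The groups overlapped, and the 95% interval of the difference from control was -0.070 to 0.30 with the A form and -0.18 to 0.18 with the G form. GAPDH, ALDOA, TPI1, PGK1 and ENO1 have near-identical copies in the genome that probe sets may share.

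Of the phosphofructokinase genes, the liver form PFKL fell with both miRNA forms. It gave 144, 134 and 132 in miR-376a*A cells, 109, 116 and 111 in miR-376a*G cells and 154, 175 and 167 in control cells. The groups did not overlap, with miR-376a*G lowest and control highest. The differences were -0.50 ± 0.076 with miR-376a*G (adjusted p = 0.000404), -0.25 ± 0.076 with miR-376a*A (adjusted p = 0.0361) and 0.25 ± 0.076 between the forms (adjusted p = 0.0339). The last of these did not pass when any 1 of the 6 arrays was left out (0.22 to 0.28, adjusted p 0.0666 to 0.13). With miR-376a*A the fall did not pass if control replicate 2 or 3 or miR-376a*A replicate 2 or 3 was left out (-0.24 to -0.21, adjusted p 0.0824 to 0.125). A dimmer PFKL probe set fell with miR-376a*G (-0.40, adjusted p = 0.0282). There neither the miR-376a*A difference from control (-0.17, adjusted p = 0.369) nor that between the forms passed (0.24, adjusted p = 0.21).

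The muscle form PFKM was the only one of the 39 genes called lower with miR-376a*A than with miR-376a*G. It averaged 834 ± 6.99 in miR-376a*A cells, 998 ± 8.59 in miR-376a*G cells and 1054 ± 54.3 in control cells. It fell by 0.33 ± 0.057 with miR-376a*A (adjusted p = 0.00141), and the forms differed by -0.26 ± 0.057 (adjusted p = 0.0077). With miR-376a*G the difference from control was -0.075 ± 0.057 (adjusted p = 0.382).

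ENO2, the neuronal enolase gene, fell to a like level with both forms. It gave 749, 791 and 772 in miR-376a*A cells, 741, 715 and 785 in miR-376a*G cells and 1138, 1151 and 1058 in control cells. All 6 arrays of the forms were below the controls and overlapped each other. The falls were 1.44-fold with miR-376a*A (adjusted p = 7.63e-05) and 1.48-fold with miR-376a*G (adjusted p = 2.93e-05), with a difference between the forms of 0.046 and a 95% interval of -0.089 to 0.18. PKM, the gene of pyruvate kinase, averaged 669.97 ± 48.5 in miR-376a*A cells, 581 ± 72.3 in miR-376a*G cells and 1029.97 ± 241 in control cells. It fell by 0.59 ± 0.14 with miR-376a*A (adjusted p = 0.00863) and by 0.79 ± 0.14 with miR-376a*G (adjusted p = 0.00102). Its other tested probe set fell with miR-376a*G (-0.32, adjusted p = 0.0305) and stood at 0.15 with miR-376a*A (adjusted p = 0.31). Between the forms the brightest PKM probe set did not pass (0.20, adjusted p = 0.339). The other was higher with miR-376a*A than with miR-376a*G (0.47, adjusted p = 0.00506).

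GPI, the glucose phosphate isomerase gene, averaged 862 ± 15.4 in miR-376a*A cells, 848 ± 13.3 in miR-376a*G cells and 974 ± 74.4 in control cells. It passed as lower with miR-376a*G (-0.19, adjusted p = 0.0415), but not when any 1 of the miR-376a*G arrays or control replicate 2 was left out (-0.21 to -0.13, adjusted p 0.076 to 0.122). With miR-376a*A it did not pass (-0.17, adjusted p = 0.0771), but did without control replicate 1 (-0.20, adjusted p = 0.0264). ALDOC, the brain aldolase gene, differed only between the forms, at 164 ± 19.3 in miR-376a*A cells and 127 ± 5.33 in miR-376a*G cells (0.33, adjusted p = 0.0301). That difference did not pass when any 1 of these 6 arrays except miR-376a*A replicate 1 was left out (0.26 to 0.35, adjusted p 0.0548 to 0.125).

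At the end of glycolysis the enzyme that makes lactate stayed within its spread. LDHA gave 2736, 2547 and 2421 in miR-376a*A cells, 2534, 2148 and 2322 in miR-376a*G cells and 2322, 2645 and 2340.4 in control cells. The 3 groups overlapped, and the 95% interval of the miR-376a*G difference from control was -0.22 to 0.10. PDK1, the kinase gene that holds pyruvate back from the mitochondria, gave 394, 399 and 394 in miR-376a*A cells, 288, 269.7 and 296 in miR-376a*G cells and 491, 411 and 399 in control cells. All miR-376a*G arrays were below all others. PDK1 fell 1.49-fold with miR-376a*G (-0.58 ± 0.080, adjusted p = 0.000226) and was 1.37-fold higher with miR-376a*A than with miR-376a*G (adjusted p = 0.00168). Both of its other tested probe sets also fell with miR-376a*G.

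**Figure D2:**
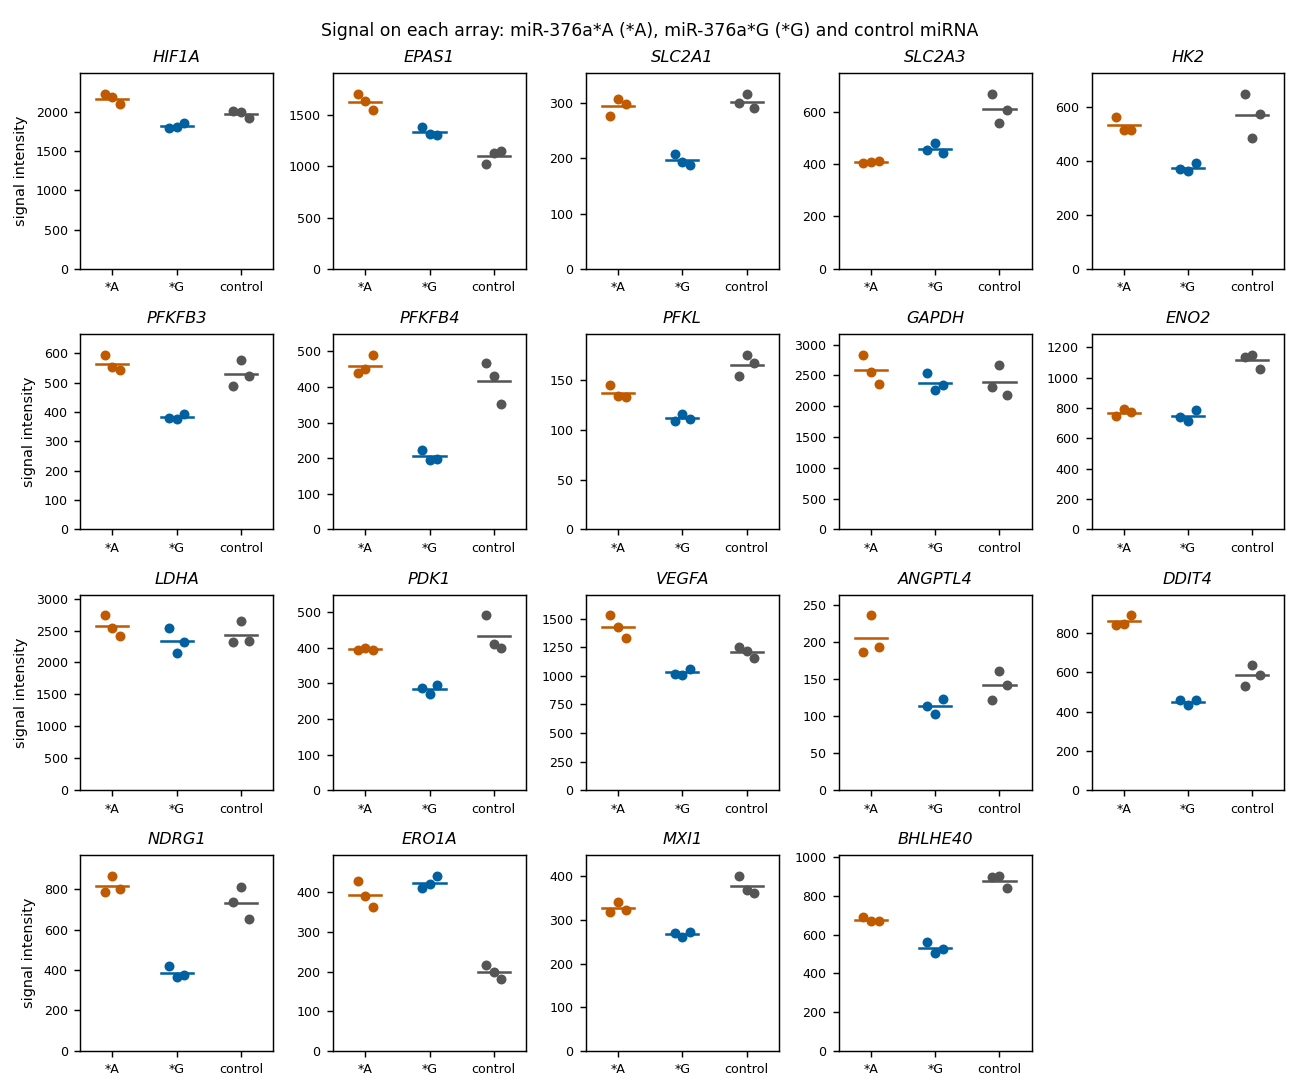
Signal intensity (vertical axes, linear, each from 0) on each of the 3 arrays of miR-376a*A (orange, left), miR-376a*G (blue, middle) and control miRNA (grey, right) for 19 genes, with bars at the group means. For SLC2A1, PFKFB4, PDK1 and NDRG1 the 3 blue miR-376a*G points lie below all other points, while for GAPDH and LDHA the groups overlap.

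Among secreted factors, VEGFA and ANGPTL4 rose with miR-376a*A. VEGFA, the growth factor for blood vessels, gave 1529, 1429 and 1336 in miR-376a*A cells, 1017, 1012 and 1065 in miR-376a*G cells and 1256, 1216 and 1155 in control cells. The 3 groups did not overlap, and control lay between the forms. VEGFA rose 1.18-fold with miR-376a*A (0.24 ± 0.064, adjusted p = 0.0187) and fell 1.17-fold with miR-376a*G (-0.23 ± 0.064, adjusted p = 0.0212). The forms differed 1.38-fold (0.47 ± 0.064, adjusted p = 0.000247). Its 3 other tested probe sets had the same signs, with 0.24 to 0.43 for the A form, -0.31 to -0.27 for the G form and 0.55 to 0.70 between the forms. The rise did not pass when control replicate 3 or miR-376a*A replicate 1 or 2 was left out (0.19 to 0.24, adjusted p 0.0663 to 0.0862), and the fall not without miR-376a*G replicate 1 or 2 (-0.22 to -0.21, adjusted p 0.0651 to 0.0847).

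ANGPTL4, a secreted inhibitor of lipoprotein lipase, gave 187, 236 and 194 in miR-376a*A cells, 113, 104 and 123 in miR-376a*G cells and 122, 161 and 143 in control cells. The miR-376a*A arrays were above all others, and the miR-376a*G arrays overlapped the controls by a narrow margin. ANGPTL4 rose 1.4-fold with miR-376a*A (0.49 ± 0.11, adjusted p = 0.00705) and stood 1.71-fold above miR-376a*G (adjusted p = 0.000309). With miR-376a*G its difference from control was -0.28 ± 0.11 (adjusted p = 0.078), and it passed without control replicate 1 (-0.38, adjusted p = 0.018). The other tested ANGPTL4 probe set did not pass with miR-376a*A (0.29, adjusted p = 0.0781). It did pass between the forms (0.55, adjusted p = 0.00339). ADM, the gene of the vessel-widening peptide adrenomedullin, averaged 763 ± 7.16 in miR-376a*A cells, 614 ± 10.1 in miR-376a*G cells and 677 ± 70.1 in control cells. It differed between the forms (0.31 ± 0.073, adjusted p = 0.0112) and not from control over all arrays. Against control it passed for miR-376a*A without control replicate 2 (0.24, adjusted p = 0.0243) and for miR-376a*G without control replicate 1 (-0.21, adjusted p = 0.0077). VLDLR, a lipoprotein receptor gene, passed in no comparison.

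DDIT4 and NDRG1 are stress genes. DDIT4 encodes an inhibitor of the growth kinase complex mTORC1. It gave 842, 845 and 889 in miR-376a*A cells, 459, 431 and 459 in miR-376a*G cells and 532, 637 and 584 in control cells. Every control array lay between the forms, with miR-376a*A above and miR-376a*G below. DDIT4 rose by 0.55 ± 0.072 with miR-376a*A (adjusted p = 0.000179) and fell by 0.36 ± 0.072 with miR-376a*G (adjusted p = 0.00263). The forms differed 1.88-fold (0.91 ± 0.072, adjusted p = 1.99e-06).

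NDRG1, named for its regulation by N-myc, gave 788, 866 and 804 in miR-376a*A cells, 419, 365 and 376.1 in miR-376a*G cells and 737, 810.4 and 653 in control cells. Every miR-376a*G array was well below the rest, and the miR-376a*A arrays overlapped the controls. NDRG1 fell 1.86-fold with miR-376a*G (-0.89 ± 0.084, adjusted p = 9.29e-06) and was 2.08-fold higher with miR-376a*A than with miR-376a*G (adjusted p = 2.22e-06). Against control its difference with miR-376a*A was 0.16 ± 0.084 (adjusted p = 0.204).

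BNIP3 and BNIP3L encode proteins of the mitochondrial surface that direct mitochondria to autophagy. BNIP3 averaged 1320.3 ± 43.6 in miR-376a*A cells, 1113 ± 73.5 in miR-376a*G cells and 1338 ± 61.5 in control cells. It fell by 0.26 ± 0.064 with miR-376a*G (adjusted p = 0.0098) and differed between the forms by 0.24 ± 0.064 (adjusted p = 0.0191). The fall did not pass without miR-376a*G replicate 2 (-0.23, adjusted p = 0.0575). The difference between the forms did not pass without miR-376a*A replicate 1 or 2 or without miR-376a*G replicate 2 or 3 (0.21 to 0.24, adjusted p 0.0735 to 0.0987). The other tested BNIP3 probe set did not pass with miR-376a*G (-0.13, adjusted p = 0.409). It did pass between the forms (0.32, adjusted p = 0.046). BNIP3L did not pass on its brightest probe set over all arrays, and was lower with miR-376a*G without control replicate 1 (-0.18, adjusted p = 0.0182). Its other tested probe set was lower with miR-376a*G (-0.49, adjusted p = 9.72e-05) and with miR-376a*A (-0.28, adjusted p = 0.0056).

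The collagen and endoplasmic reticulum enzymes held the largest rise of the 39 genes on their brightest probe sets. ERO1A encodes an oxidase of the endoplasmic reticulum that drives disulfide bonds. It gave 428, 389.9 and 364 in miR-376a*A cells, 410.2, 421 and 441 in miR-376a*G cells and 216, 199.9 and 181 in control cells. All 6 arrays of the forms lay far above the controls and overlapped each other. ERO1A rose 1.91-fold with miR-376a*A (0.93 ± 0.082, adjusted p = 6.43e-06) and 2.05-fold with miR-376a*G (1.04 ± 0.082, adjusted p = 1.9e-06), with a difference between the forms of -0.11 (95% interval -0.28 to 0.072). Of its other tested probe sets, 1 also rose, by 1.23 and 1.39 with the A and G forms, and 1 did not pass, at 0.088 and 0.028. The latter had means of 243 in miR-376a*A cells, 233 in miR-376a*G cells and 228 in control cells. In control cells it was thus brighter than the probe set used, which averaged 199, so the rise of ERO1A depends on the probe set.

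P4HA1 and P4HA2 encode catalytic subunits of the prolyl hydroxylase that stabilises collagen. P4HA1 averaged 712 ± 48.7 in miR-376a*A cells, 581 ± 23.2 in miR-376a*G cells and 726 ± 60.5 in control cells. It fell by 0.31 ± 0.076 with miR-376a*G (adjusted p = 0.00958), but not past the threshold without miR-376a*G replicate 2 (-0.28, adjusted p = 0.0517). The forms differed by 0.28 ± 0.076 (adjusted p = 0.0202), which did not pass without miR-376a*A replicate 1 or 2 or without miR-376a*G replicate 2 (0.24 to 0.28, adjusted p 0.0717 to 0.095). P4HA2 averaged 1223 ± 77.1 in miR-376a*A cells, 1012 ± 59.0 in miR-376a*G cells and 1168 ± 9.60 in control cells. It was lower with miR-376a*G (-0.20, adjusted p = 0.0364), and that call ended when any 1 of the miR-376a*G arrays or control replicate 3 was left out (-0.23 to -0.16, adjusted p 0.0512 to 0.172). The forms differed by 0.27 ± 0.065 (adjusted p = 0.0121), but not past the threshold without miR-376a*A replicate 2 or without miR-376a*G replicate 2 (0.22 and 0.23, adjusted p 0.0752 and 0.0756). A dimmer P4HA2 probe set went the other way, with means of 162 and 153 for the A and G forms and 44.0 for control, a rise of 1.57 and 1.49.

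The transcriptional repressors MXI1 and BHLHE40 and the ankyrin repeat gene ANKRD37 all fell with miR-376a*G. BHLHE40, which is also a regulator of the circadian clock, gave 689.8, 669 and 669 in miR-376a*A cells, 559.7, 507 and 524 in miR-376a*G cells and 897, 903 and 840.03 in control cells. The groups did not overlap, with miR-376a*G lowest and control highest. BHLHE40 fell 1.64-fold with miR-376a*G (-0.71 ± 0.062, adjusted p = 4.54e-06) and 1.29-fold with miR-376a*A (-0.37 ± 0.062, adjusted p = 0.00108). The forms differed by 0.34 ± 0.062 (adjusted p = 0.002). A dimmer BHLHE40 probe set fell with both forms (-0.54 with miR-376a*A and -0.76 with miR-376a*G) and did not pass between them (0.21, adjusted p = 0.211).

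MXI1, an antagonist of the Myc protein, gave 317, 342 and 323 in miR-376a*A cells, 269, 261 and 273 in miR-376a*G cells and 400.3, 369 and 362 in control cells. The groups did not overlap and had the same order as for BHLHE40. MXI1 fell by 0.47 ± 0.067 with miR-376a*G (adjusted p = 0.000269) and stood at -0.19 ± 0.067 with miR-376a*A (adjusted p = 0.0597). The forms differed by 0.27 ± 0.067 (adjusted p = 0.0128), but not past the threshold without miR-376a*A replicate 2 or without miR-376a*G replicate 2 (0.24 and 0.26, adjusted p 0.0641 and 0.0733). ANKRD37 averaged 231 ± 18.5 in miR-376a*A cells, 155 ± 4.87 in miR-376a*G cells and 219.9 ± 34.1 in control cells. It fell by 0.45 ± 0.10 with miR-376a*G (adjusted p = 0.00564) and differed between the forms by 0.52 ± 0.10 (adjusted p = 0.00282).

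**Figure D3:**
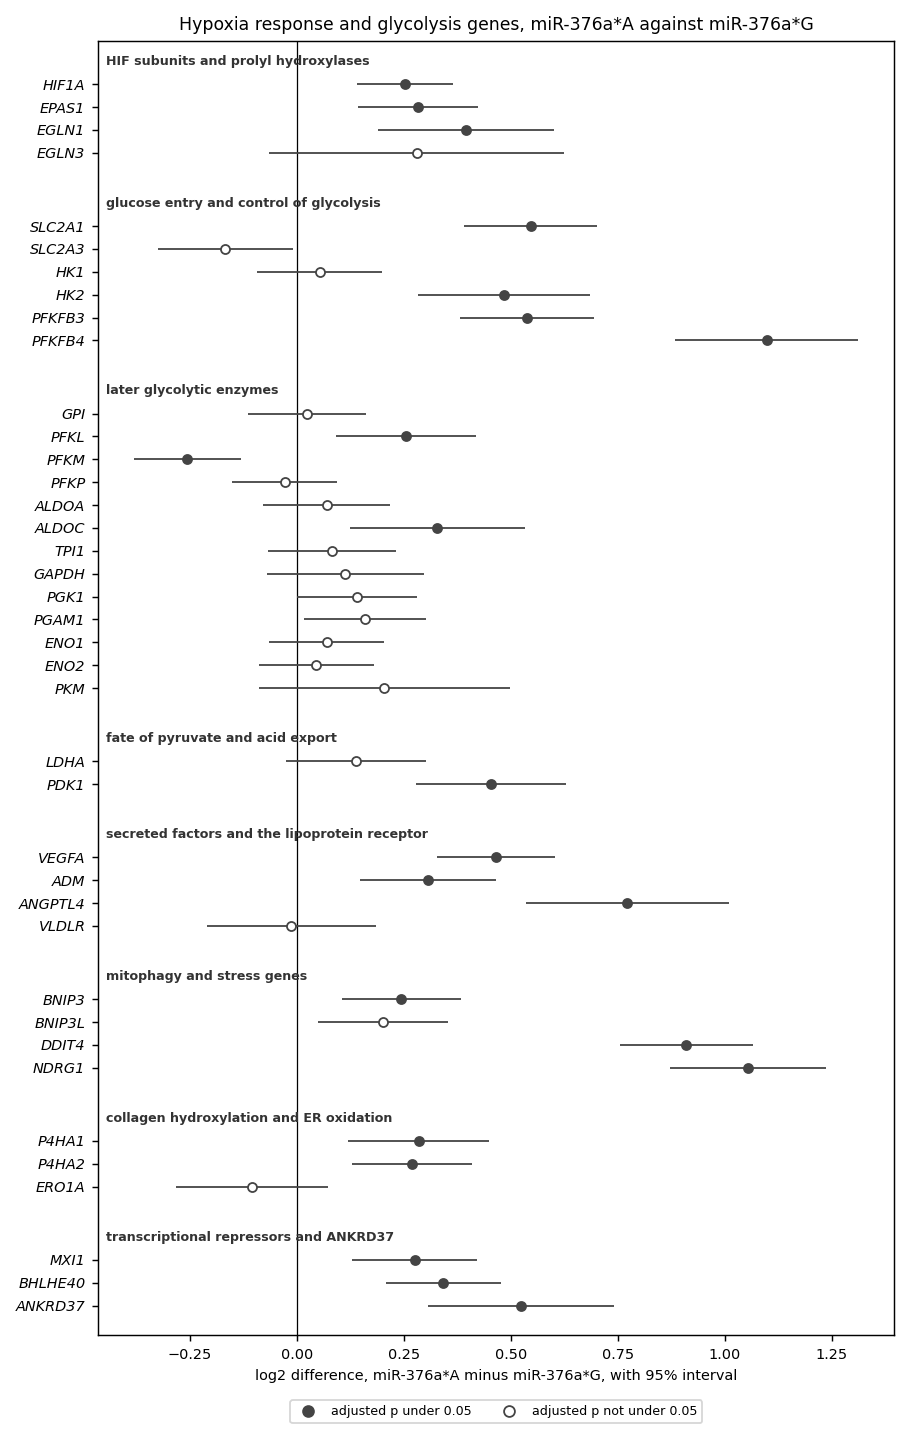
Log2 difference of miR-376a*A minus miR-376a*G (horizontal axis, 95% interval, n = 3 arrays a group) of the 39 genes by role. Filled points have an adjusted p under 0.05, with 21 right of 0 and 1, PFKM, left of it.

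Seen by the call of the brightest probe set in each comparison, the most common pattern of a changed gene was a fall with miR-376a*G, no call with miR-376a*A and a higher level with miR-376a*A than with miR-376a*G. It held for 12 genes, namely EGLN1, SLC2A1, HK2, PFKFB3, PFKFB4, PDK1, BNIP3, NDRG1, P4HA1, P4HA2, MXI1 and ANKRD37. VEGFA and DDIT4 were called in opposite directions against control. SLC2A3, ENO2 and PKM fell with both forms and ERO1A rose with both, without a call between the forms. For SLC2A3 and PKM other probe sets did pass between the forms, lower with miR-376a*A for SLC2A3 and higher for PKM. Another 12 genes were called in no comparison, among them GAPDH, LDHA, PGK1 and ENO1. These joint patterns were not counted over all features, so no background share stands beside any of their counts.

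Most called genes with other tested probe sets had all of them on the same side. For miR-376a*G against control this held for 12 of 14 genes, the exceptions being HK2 and P4HA2, and in 9 another probe set passed in the same direction. For miR-376a*A it held for 7 of 8, with 5 backed by another passing probe set. For the forms against each other it held for 11 of 12, with 5 backed by another passing probe set and 1, HK2, opposed by one. Some genes without a call on the brightest probe set had other probe sets that passed as lower with miR-376a*G. These were BNIP3L, PGK1 (-0.49 and -0.31), ENO1 (-0.43) and ALDOA (-0.24). The same ENO1 probe set also fell with miR-376a*A (-0.34, adjusted p = 0.0077) and did not pass between the forms (0.091, adjusted p = 0.471). The BNIP3L probe set, too, fell with miR-376a*A, as given above.

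**Figure D4:**
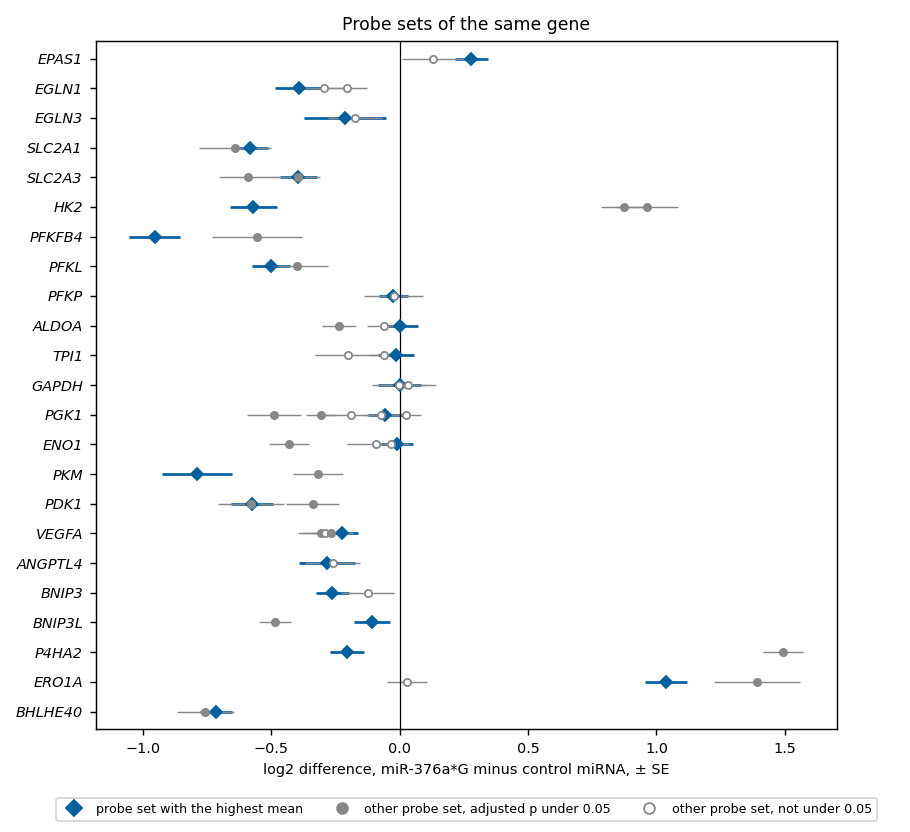
Log2 difference of miR-376a*G minus control miRNA (horizontal axis, ± SE, n = 3 arrays a group) for genes with more than 1 tested probe set, the brightest as a blue diamond and the others as circles, filled at an adjusted p under 0.05. The circles of HK2 at 0.88 and 0.96 and of P4HA2 at 1.49 lie on the other side of 0 from their diamonds.

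Other genes of the pathway, listed apart from the 41, were read in the same fit. These lists were chosen with earlier results of these data known, so their shares are no independent check of the pattern. Of 32 tested other HIF target genes, 12 fell with miR-376a*G (37.5%), against 13.1% of all features, and 0 rose, against 11.8%, with a median of -0.18. The largest fall was that of NRN1, the gene of the neurite growth factor neuritin, at 334 ± 2.84 in miR-376a*G cells and 853 ± 60.5 in control cells (2.48-fold, adjusted p = 7.21e-08). JMJD6, a lysyl hydroxylase gene, fell 1.92-fold (adjusted p = 4.1e-07), and PPP1R3C, which targets a phosphatase to glycogen, 1.72-fold (adjusted p = 7.3e-05). The dim other PPP1R3C probe set stood at 0.016 (adjusted p = 0.933). The glycogen synthase gene GYS1, the branching enzyme gene GBE1, PGM1, CCNG2, KDM4B, ZNF395, HILPDA and TMEM45A also fell. With miR-376a*A, RORA, a nuclear receptor gene, rose (0.34 ± 0.087, adjusted p = 0.0153) and STC2, a secreted glycoprotein gene, fell (-0.29 ± 0.070, adjusted p = 0.0106), with a median of -0.04 over the list. On its other probe set STC2 stood at 0.0094 with miR-376a*A (adjusted p = 0.953) and rose with miR-376a*G (0.73, adjusted p = 5.43e-05; means of 359.6 with miR-376a*G and 211 with control), so its calls against control depend on the probe set. There too it was lower with miR-376a*A than with miR-376a*G (-0.72, adjusted p = 7.43e-05). RORA fell with miR-376a*G (-0.70 ± 0.087, adjusted p = 8.68e-05), and the forms differed there by 1.04 ± 0.087 (adjusted p = 3.47e-06). Between the forms, 14 of 32 were higher with miR-376a*A (43.8%), against 10.4% of all features, and 1, STC2, was lower. On the brightest probe sets no rise with miR-376a*G was called, and at an unadjusted p under 0.05 limma gave 1, CITED2 (0.46, adjusted p = 0.0706), which is also in the list of HIF machinery.

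**Figure D5:**
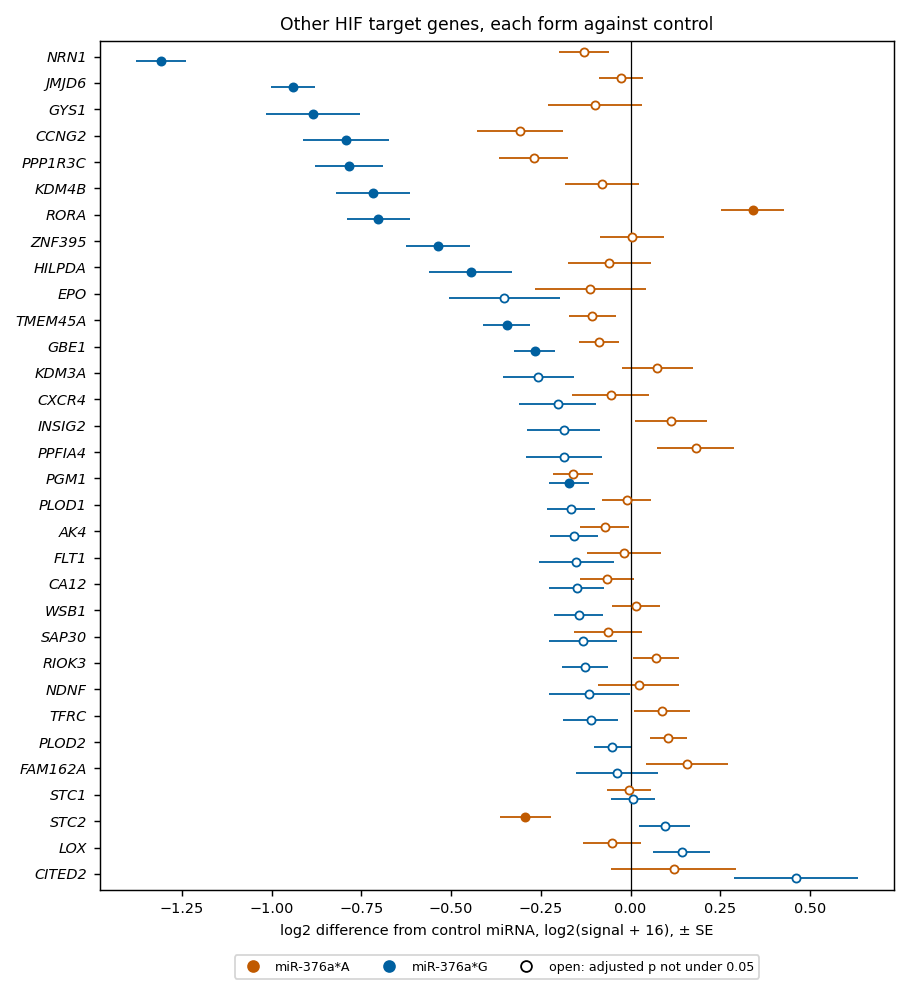
Log2 difference from control miRNA (horizontal axis, ± SE, n = 3 arrays a group) of 32 other HIF target genes, miR-376a*A in orange and miR-376a*G in blue, filled at an adjusted p under 0.05. The 12 filled blue points lie left of 0, with NRN1 at -1.31, and the filled orange points are RORA and STC2.

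Of 17 tested genes of the HIF machinery, 3 fell (17.6%) and 1 rose (5.88%) with miR-376a*G, against 13.1% and 11.8% of all features. With miR-376a*A, 1 fell (5.88%) and 3 rose (17.6%), against 10.0% and 10.8%. These shares rest on 1 to 3 genes each and lay near those of all features. EP300, a histone acetyltransferase and HIF coactivator, fell 1.67-fold with miR-376a*A (adjusted p = 0.000171) and 2.52-fold with miR-376a*G (adjusted p = 9.56e-07). The difference between the forms was 0.60 ± 0.096 (adjusted p = 0.000869). Its other probe set fell with miR-376a*G (-1.01, adjusted p = 1.58e-05) and did not pass with miR-376a*A (-0.23, adjusted p = 0.134). With miR-376a*G the related coactivator CREBBP (-0.22, adjusted p = 0.0437) and ARNT2, a beta subunit gene (-0.62, adjusted p = 0.00604), also fell. Another CREBBP probe set fell with miR-376a*A (-0.35, adjusted p = 0.0152) and with miR-376a*G (-0.50, adjusted p = 0.00126), and the dimmest passed with neither. RBX1 and SIAH2 rose with miR-376a*A. ELOC, of the ubiquitin ligase complex that marks HIF alpha, rose with both forms (0.30 with miR-376a*A and 0.24 with miR-376a*G). Its other probe set passed with neither the A form (0.20, adjusted p = 0.263) nor the G form (0.30, adjusted p = 0.0899). HIF1AN, the asparaginyl hydroxylase gene, was lower with miR-376a*A than with miR-376a*G (-0.23, adjusted p = 0.0381). Its other probe sets did not pass there (-0.25 and -0.079, adjusted p = 0.117 and 0.577).

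Few of the other glycolysis genes were called. Of 19 tested, 1 rose and 1 fell with miR-376a*G (5.26% each), against 11.8% and 13.1% of all features. With miR-376a*A 2 rose (10.5%) and 3 fell (15.8%), against 10.8% and 10.0%. TIGAR, whose protein lowers the activator that PFKFB enzymes make, rose with both forms (0.66 ± 0.062 with miR-376a*A and 0.65 ± 0.062 with miR-376a*G). G6PC3, a glucose phosphatase gene, fell with both (-0.80 ± 0.072 and -0.80 ± 0.072 for the A and G forms). HKDC1, a hexokinase gene, fell with miR-376a*A (-0.55, adjusted p = 0.000586) and was lower than with miR-376a*G (-0.57). PFKFB2 also fell with miR-376a*A (-0.40, adjusted p = 0.0238), and the testis lactate dehydrogenase gene LDHC rose (0.71, adjusted p = 0.0287).

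Of 14 genes of pyruvate and lactate handling, 4 fell (28.6%) and 2 rose (14.3%) with miR-376a*G, against 13.1% and 11.8% of all features. With miR-376a*A 3 fell (21.4%) and 1 rose (7.14%), against 10.0% and 10.8%. SLC16A7, a monocarboxylate transporter gene, fell 2.54-fold with miR-376a*G (adjusted p = 8.58e-07) and was 2.72-fold higher with miR-376a*A than with miR-376a*G (adjusted p = 4.61e-07). PDHX, a component of pyruvate dehydrogenase, fell by 0.78 ± 0.074 with miR-376a*A and by 0.33 ± 0.074 with miR-376a*G, and PDP1, its phosphatase, by 0.56 and 0.56 with the A and G forms. PDK3, a kinase of the same complex, fell with miR-376a*G (-0.29, adjusted p = 0.0166), PDK4 with miR-376a*A (-0.46, adjusted p = 0.0155), and the pyruvate carrier gene MPC2 rose with both on its brightest probe set. Its other probe set did not pass (-0.089 with the A form and -0.034 with the G form). DLD, another component of pyruvate dehydrogenase, rose with miR-376a*G (0.27 ± 0.060, adjusted p = 0.00569). Of 10 genes of the pentose phosphate pathway, 2 rose and 1 fell with miR-376a*G, against 11.8% and 13.1% of all features, and 1 fell with miR-376a*A, against 10.0%. RPE (0.28) and PRPS2 (0.30) rose with miR-376a*G, and PGD fell with both forms (-0.21 and -0.20 for the A and G forms). H6PD was higher with miR-376a*A than with miR-376a*G (0.29, adjusted p = 0.0402), and RPE lower (-0.24, adjusted p = 0.0402).

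The 250 bases before the start of each transcript were read for the core letters of HIF-bound elements, ACGTG and GCGTG, on both strands, from RefSeq on GRCh38.p14. Of 66 such windows of 37 of the 41 genes, 62.1% held at least 1 match, against 43.2% of all 35116 windows. CA9 and SLC16A3, which have no signal here, are among the 37. VEGFA, NDRG1, SLC2A3 and BNIP3L had no window. For ACGTG alone the shares were 40.9% of the genes' windows and 18.5% of all, and for GCGTG 34.8% and 32.2%. Windows of genes that fell with miR-376a*G held a match in 77.3% of 22 windows, and those of genes not passing there in 50.0% of 36 windows. Counted by gene the order turned, with a match in at least 1 window for 82.4% of 17 genes that fell and 87.5% of 16 genes not passing, so no difference between them is read from these shares. By gene, 86.5% of the 37 and 47.4% of all 27305 genes held a match, with the number of windows a gene differing. A match is only a string of letters, and nothing was measured on binding. ERO1A, which rose on its brightest probe set, is shown beside PFKFB4, BHLHE40 and ANKRD37, which fell with miR-376a*G. Their windows are given with the matches in capitals. They lie at chr3:48556804-48557053 (PFKFB4, minus strand), chr3:4979187-4979436 (BHLHE40, plus strand), chr4:185396591-185396840 (ANKRD37, plus strand) and chr14:52695559-52695808 (ERO1A, minus strand). CACGT and CACGC are the same letters read on the other strand, and CACGTG counts as a match on each.
PFKFB4: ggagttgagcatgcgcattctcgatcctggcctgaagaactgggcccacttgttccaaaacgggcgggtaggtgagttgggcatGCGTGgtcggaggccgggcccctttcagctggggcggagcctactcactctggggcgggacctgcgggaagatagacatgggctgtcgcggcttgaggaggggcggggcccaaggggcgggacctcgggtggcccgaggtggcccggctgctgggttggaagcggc
BHLHE40: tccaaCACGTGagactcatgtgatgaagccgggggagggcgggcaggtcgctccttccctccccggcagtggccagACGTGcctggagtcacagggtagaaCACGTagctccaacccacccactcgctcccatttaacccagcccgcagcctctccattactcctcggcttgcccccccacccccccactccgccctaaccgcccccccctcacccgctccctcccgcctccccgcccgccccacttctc
ANKRD37: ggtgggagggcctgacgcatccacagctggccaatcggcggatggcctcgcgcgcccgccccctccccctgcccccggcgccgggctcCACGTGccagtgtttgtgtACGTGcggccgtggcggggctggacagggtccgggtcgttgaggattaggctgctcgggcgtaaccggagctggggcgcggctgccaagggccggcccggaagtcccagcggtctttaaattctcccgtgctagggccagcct
ERO1A: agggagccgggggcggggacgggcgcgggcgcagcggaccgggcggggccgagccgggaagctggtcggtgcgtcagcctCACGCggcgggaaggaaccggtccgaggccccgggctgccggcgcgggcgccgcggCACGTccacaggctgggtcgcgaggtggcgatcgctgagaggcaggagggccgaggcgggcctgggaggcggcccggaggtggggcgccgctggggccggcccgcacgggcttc
PFKFB4, with the largest fall, held 1 match in its window, BHLHE40 held 4, ANKRD37 3 and ERO1A 2.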

How the data were processed

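Each sample, RNA of a U87 culture, was measured on its own Affymetrix array. The authors deposited linear signal intensities for every probe set. The tool named in the submitters' processing notes is GCOS 1.4.0.036, with the signal algorithm not given in the sources used here. The deposited intensities have a common trimmed mean, which hides any shift common to all transcripts.

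The labels give 3 groups of 3 biological replicates. The table holds 54675 probe sets. Leaving aside 62 array controls, the annotation gives 1 symbol to 41091, several to 1801 and none to 11721. Intensities were taken as log2(signal + 16) without further scaling. The 32768 probe sets at or above the 40th percentile of mean log2 signal (4.771) were kept. Each gene was read from its brightest probe set, so that 20068 features were tested, among them 13697 single-symbol genes. The test was that of limma 3.58.1 in R 4.3.3 (lmFit, contrasts, eBayes with an intensity trend; 6 residual and 6.48 prior degrees of freedom), two-sided, with Benjamini-Hochberg adjustment over all features. Tables and figures used Python 3.11.15, pandas 2.3.3, numpy 2.4.6 and matplotlib 3.10.9. Intensities were also simulated with 200 of 20068 features changed. For miR-376a*A against control the fit recovered 66% of 1.5-fold and 96% of 2-fold changes. For the G form it recovered 72% and 98%, and for the forms against each other 72% and 97%. Of all calls 5.26%, 3.95% and 3.43% were false in the same order. In the data far more features passed (3671 to 4993), and the simulated noise had the same spread in every group. These shares therefore do not give the power of the comparisons themselves.

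Per-array values are given for up to 16 genes with the smallest p in any comparison that passed at least 1, and always for HIF1A, EPAS1, VEGFA, HK2, LDHA, GAPDH and PDK1. From each list of other pathway genes, the 4 with the smallest p and all genes of counts up to 3 are named, and the other falls among HIF targets were named after their values were seen. The genes and lists were chosen with earlier results of these data known. The alternatives tried were the offset, the filter, the scaling, the variance model, the probe set of a gene, the groups fitted, a replicate block and leaving out each replicate.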

Additional observations from a re-analysis of the deposited data

Results flagged for a closer look

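Of the 39 genes, only VEGFA and DDIT4 passed in opposite directions against control and also differed when the forms were compared directly. How many of all features did so was not counted. For VEGFA the difference of miR-376a*A minus miR-376a*G was 0.465 on the log2 scale (adjusted p = 0.000247), with all 3 miR-376a*A arrays above and all 3 miR-376a*G arrays below the 3 control arrays. For DDIT4 it was 0.911 (adjusted p = 1.99e-06), again with every control array between the forms. The differences of each form from control share the control arrays, while the difference between the forms does not use them.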

How the results depend on the processing

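Each comparison was rerun under 17 alternatives. With miR-376a*A against control, 8 of 11 calls held under all of them (not VEGFA, PFKL and PKM); with miR-376a*G, 16 of 22 (not VEGFA, BNIP3, HK2, GPI, P4HA1 and P4HA2); between the forms, 14 of 22 (not BNIP3, HK2, ALDOC, PFKL, P4HA1, P4HA2, EGLN1 and MXI1). With array weights, where control replicates 1, 2 and 3 had weights of 0.189, 0.391 and 8.16, 15 genes in place of 5 were higher with miR-376a*A than with control, while over all features 8926 in place of 4177 passed in either direction. With the mean of a gene's probe sets, 4 in place of 2 were higher with miR-376a*G than with control, and HK2 was higher than control with miR-376a*A (0.43, adjusted p = 0.00129) and with miR-376a*G (0.42, adjusted p = 0.00116), as was P4HA2 with miR-376a*G (0.64, adjusted p = 1.37e-05). These averages include the dim probe sets described above. The count lower with miR-376a*A than with miR-376a*G was 2 in place of 1 with array weights and with each array centred on its median. It was also 2 with the mean of probe sets and with only the groups compared in the fit. The added gene was SLC2A3 in each of these settings. With the mean of probe sets its difference was -0.63, an average that includes the larger differences of its other probe sets given above. Why it passed in the other settings was not tested. Leaving out 1 array at a time, 4 to 6 genes were higher and 5 to 7 lower with miR-376a*A, 2 were higher and 15 to 23 lower with miR-376a*G (15 without miR-376a*G replicate 2), and 14 to 19 were higher and 1 lower with miR-376a*A than with miR-376a*G (14 without miR-376a*A replicate 2). Arrays that share a replicate number did not deviate together (correlations of -0.11 to 0.071). The labels do not say whether equal numbers mark cultures handled together, and these correlations cannot show it. With a replicate block 5 genes were higher and 5 lower with miR-376a*A, and 2 and 18 with miR-376a*G. Between the forms 20 were higher and 1 lower. Over all features 3840, 4714 and 3325 passed there in the same order, in place of 4177, 4993 and 3671.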
